A study of Mus musculus with 10 samples.

Results

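The 10 genes of this report encode the chains of mouse MHC class II molecules and the proteins that load them with peptide. They are the chain genes H2-Aa, H2-Ab1, H2-Eb1 and H2-Eb2, the invariant chain gene Cd74, the peptide exchange genes H2-DMa, H2-DMb1 and H2-DMb2, and the regulator genes H2-Oa and H2-Ob. They were taken by name, with every probe that the platform annotation assigns to them, which gave 10 of 21946 named genes and 19 of the 46237 probes on the array. All 19 were among the 20241 probes that passed a filter on dim signal, a detection p under 0.05 on at least 5 of the 10 arrays. Each array measured total RNA of sorted spleen monocytes from C57BL/6 mice aged 3 months. The 5 TCL1-AT samples came from leukaemic mice, 6 weeks after they received chronic lymphocytic leukaemia cells of mouse origin. In the Eµ-TCL1 model that gives the group its name, an immunoglobulin enhancer drives the human oncogene TCL1 in B cells, so the leukaemia is of B cells and the host's monocytes carry no transgene. The 5 WT samples came from mice with no intervention and are labelled as pools, with no number of mice given. Whether each TCL1-AT sample is 1 mouse is not given either, so the p-values measure the spread between these samples, which may be technical.

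Both groups were sorted by the same gate: negative for lineage markers, CD11b positive, F4/80 intermediate, CD11c low to intermediate and low for MHC class II at the surface. The transcripts described here therefore come from cells chosen for low surface amounts of the proteins they encode. The monocyte label was checked first, by a few defining genes only. Csf1r, the receptor for the monocyte growth factor M-CSF, averaged a log2 signal of 11.55 ± 0.17 in TCL1-AT samples and 11.84 ± 0.36 in WT samples (SD, n = 5 each), and Itgam, which encodes CD11b, averaged 7.15 ± 0.15 in TCL1-AT samples and 7.34 ± 0.31 in WT samples. Neither gene was called, and both were detected on every array. Adgre1, which encodes F4/80, was lower, with a difference of -0.91 between TCL1-AT and WT samples (limma, adjusted p = 0.0011). Itgax, which encodes CD11c and is dim here, averaged 5.56 ± 0.20 in TCL1-AT samples and 5.17 ± 0.24 in WT samples (SD, n = 5 each), and both of its probes were called higher (0.39 and 0.61, limma adjusted p 0.045 and 0.0014). The arrays detected 43% to 45.2% of probes in TCL1-AT samples and 42.9% to 45.3% in WT samples. Median raw signals ran from 90.3 to 93.4 in TCL1-AT samples and from 80.4 to 92.1 in WT samples, where WT 1 stood at 92.1 and the other 4 reached at most 87.8.

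MHC class II molecules are pairs of an alpha and a beta chain that carry peptides from the endosome to the cell surface and show them to CD4+ T cells. The invariant chain, the product of Cd74, fills the groove of newly made pairs and guides them to the endosome, where proteases leave only the fragment CLIP in place. DM, a pair of H2-DMa and H2-DMb products, swaps CLIP for peptide, and DO, the pair made from H2-Oa and H2-Ob and known best from B cells, holds DM back. Most of these genes share a promoter module that the factors RFX, CREB and NF-Y bind and that the coactivator CIITA switches on. C57BL/6 mice carry the b haplotype, in which H2-Ea, the alpha chain partner of H2-Eb1, is not made.

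The promoter module shared by these genes is shown because CIITA acts through it and because the members moved by very different amounts. RefSeq promoter windows (GRCm38.p6, 250 bases before to 50 bases after each gene's start, 300 bases in all) were given for 8 of the 10 genes, and no window was given for H2-Ab1 or Cd74. Both strands were searched for TGATTGG, the Y box that NF-Y binds. They were also searched for the letters AAC, taken here as a mark of the X box of these promoters. Those letters had to start 26 to 29 bases before TGATTGG on the same strand. That spacing was read from these windows themselves, so its presence in them is a description. TGATTGG stood in 7 of the 9 windows (H2-DMa has 2 windows, neither with it), against 2568 of 32851 windows of all genes, or 7.82%. Its shorter core ATTGG stood in 8 of the 9 windows, 1 of those of H2-DMa among them, and in 37.4% of all windows. An X box stretch, AACNGATG, stood in 4 of the 9, against 2.32% of all. The pair AAC and TGATTGG at that spacing stood in the 7 windows with TGATTGG, against 151 of all windows, or 0.460%. The 150 bases before the start are printed 5′ to 3′ on the gene's strand, with both elements in capitals. The positions on chromosome 17 are chr17:34287824-34287973 on the minus strand for H2-Aa and, on the plus strand, chr17:34305717-34305866 for H2-Eb1, chr17:34325525-34325674 for H2-Eb2, chr17:34153041-34153190 for H2-DMb1, chr17:34145099-34145248 for H2-DMb2, chr17:34092229-34092378 for H2-Oa and chr17:34238755-34238904 for H2-Ob.
H2-Aa: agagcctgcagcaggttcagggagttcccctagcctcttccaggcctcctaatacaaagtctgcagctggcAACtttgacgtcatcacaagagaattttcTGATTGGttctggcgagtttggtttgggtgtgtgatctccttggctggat
H2-Eb1: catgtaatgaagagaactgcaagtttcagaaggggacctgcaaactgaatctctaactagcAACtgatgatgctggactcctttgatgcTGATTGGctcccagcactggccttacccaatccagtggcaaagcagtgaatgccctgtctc
H2-Eb2: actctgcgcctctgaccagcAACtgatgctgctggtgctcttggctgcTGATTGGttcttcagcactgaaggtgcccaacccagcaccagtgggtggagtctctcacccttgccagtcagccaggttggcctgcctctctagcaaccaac
H2-DMb1: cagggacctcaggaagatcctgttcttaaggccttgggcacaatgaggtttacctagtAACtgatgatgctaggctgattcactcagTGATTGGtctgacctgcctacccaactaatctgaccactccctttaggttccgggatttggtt
H2-DMb2: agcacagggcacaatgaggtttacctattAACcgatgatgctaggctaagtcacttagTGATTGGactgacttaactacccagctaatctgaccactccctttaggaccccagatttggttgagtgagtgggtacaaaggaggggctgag
H2-Oa: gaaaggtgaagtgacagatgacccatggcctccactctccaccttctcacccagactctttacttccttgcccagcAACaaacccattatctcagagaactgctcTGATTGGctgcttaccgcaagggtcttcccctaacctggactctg
H2-Ob: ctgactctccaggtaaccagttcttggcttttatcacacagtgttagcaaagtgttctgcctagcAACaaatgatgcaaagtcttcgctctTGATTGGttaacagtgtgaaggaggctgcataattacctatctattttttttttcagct
A match names letters and not a bound site. The windows of H2-DMb1 and H2-DMb2, neighbouring genes that are near copies, were identical at 208 of 247 aligned bases, or 84.2%.

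Classical class II chains were higher in TCL1-AT monocytes on every probe that measured them, with Cd74 higher to a lesser degree, and the largest difference was in H2-Eb1. The peptide exchange genes did not move with them: H2-DMa was lower, H2-DMb1 was not called and H2-DMb2 was slightly higher. H2-Oa, by contrast, was 5.37-fold higher. Of the 19 probes 15 were called higher and 2 lower at a Benjamini-Hochberg adjusted p under 0.05 in limma, where 12.1% of all tested probes were called higher, 14.8% lower and 27.0% in either direction. Taking 1 probe per gene, the brightest, 8 of 10 genes were called higher and 1 lower, against 12.7% and 16.5% of 11506 named genes. The H2-Eb2 probes passed the filter with all 5 TCL1-AT arrays, where they are higher, and were detected on 4, 3 and 1 WT arrays. With detection required on all 10 arrays, they drop out, and 12 probes and 7 genes were called higher, 2 probes and 1 gene lower. Of all 14538 probes that pass that stricter filter, 2311 were called higher and 2842 lower. The groups did not overlap for 13 probes, all higher in TCL1-AT, where 9.07% of all probes were higher without overlap and 10.8% lower. The median log2 difference was 1.31 over the 19 probes and 0.01 over all tested probes. A log2 difference of at least 1 was seen for 11 of the 19 probes and for 1.97% of all tested probes. In bulk RNA, a change in the number of cells of a type and a change in RNA per cell cannot be told apart.

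**Figure D1:**
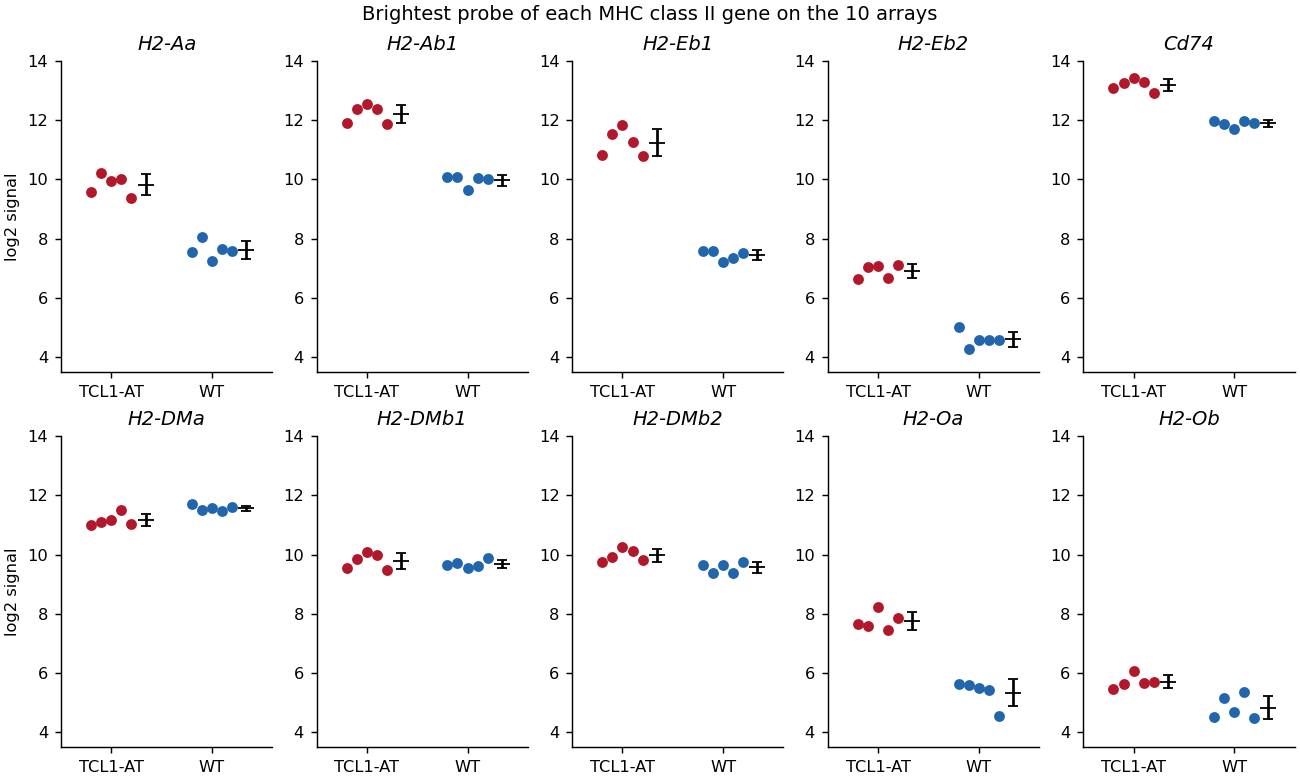
Normalized log2 signal of the brightest probe of each of the 10 genes on each array, with points for the 5 TCL1-AT and the 5 WT arrays and, beside them, the group mean ± SD. The groups do not overlap for H2-Aa, H2-Ab1, H2-Eb1, H2-Eb2, Cd74, H2-Oa and H2-Ob, and overlap for H2-DMa, H2-DMb1 and H2-DMb2. Levels are to be compared between groups within a panel, not between genes.

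The I-A molecule, the only classical class II protein that C57BL/6 cells can assemble, is made from H2-Aa and H2-Ab1. H2-Aa had log2 signals of 9.57, 10.22, 9.96, 10.00 and 9.37 in TCL1-AT samples 1 to 5, against 7.56, 8.05, 7.23, 7.66 and 7.57 in WT samples 1 to 5. The lowest TCL1-AT array stood above the highest WT array by more than the range within either group. Before normalization the raw signals were 727 to 1353 in TCL1-AT samples and 193 to 381 in WT samples, also without overlap. H2-Aa was higher by 2.21 (SE 0.18, limma adjusted p = 9.6e-07), or 4.62-fold. H2-Ab1, the beta chain gene, had 11.91, 12.38, 12.55, 12.39 and 11.86 in TCL1-AT samples, against 10.08, 10.09, 9.65, 10.04 and 10.00 in WT samples by its brightest probe. Every TCL1-AT array was again above every WT array. The difference was 2.25 (SE 0.15, limma adjusted p = 2.1e-07), or 4.75-fold, and the other 2 probes gave 2.48 and 2.47, or 5.59-fold and 5.53-fold. The alpha and beta chain genes thus changed by like amounts: the within-array gap between H2-Aa and H2-Ab1 moved by -0.04 between the groups (exact permutation test, 2-sided, adjusted p = 0.722 over 8 gene pairs).

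H2-Eb1 encodes the beta chain of I-E, whose alpha chain is missing in this strain. It had 10.82, 11.52, 11.84, 11.26 and 10.79 in TCL1-AT samples, against 7.59, 7.58, 7.20, 7.36 and 7.50 in WT samples. The 5 WT arrays lay within a narrow band, the TCL1-AT arrays spread more widely, and nothing overlapped. The difference of 3.80 (SE 0.18, limma adjusted p = 1.1e-08), or 13.9-fold, was rank 11 among all 20241 probes ordered by their rise, against rank 38 for the highest H2-Ab1 probe. The within-array gap between H2-Eb1 and H2-Ab1 was -0.97 ± 0.18 in TCL1-AT samples and -2.53 ± 0.09 in WT samples (SD, n = 5 each), a shift of 1.55 without overlap (exact permutation test, 2-sided, p = 0.00794, the smallest that 5 arrays against 5 allow, adjusted p = 0.0106). H2-Ea was not detected on any of the 10 arrays, with log2 signals of 4.09 to 4.27 in TCL1-AT samples and 4.12 to 4.21 in WT samples. H2-Eb1 transcript thus rose in monocytes without a detected H2-Ea signal.

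H2-Eb2 is a second beta chain gene beside H2-Eb1 and was close to background in WT monocytes. Its brightest probe had 6.65, 7.04, 7.07, 6.66 and 7.12 in TCL1-AT samples, against 5.00, 4.27, 4.58, 4.57 and 4.58 in WT samples, and was detected on 5 TCL1-AT and 4 WT arrays. It was higher by 2.31 (SE 0.14, limma adjusted p = 1.2e-07) with no overlap. The size of that difference depends on the treatment of background, since it was 1.02 without background correction. The 2 dimmer probes gave 0.69 (SE 0.21, limma adjusted p = 0.024, groups overlapping) and 0.94 (SE 0.12, limma adjusted p = 8.2e-05, no overlap), with detection on 3 and 1 WT arrays. The call on the probe at 0.69 was lost when any of TCL1-AT 2, TCL1-AT 3, WT 2 or WT 4 was left out (adjusted p 0.057, 0.051, 0.064 and 0.065).

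Cd74 encodes the invariant chain, which also serves at the cell surface as a receptor for the cytokine MIF. It had 13.10, 13.25, 13.43, 13.31 and 12.92 in TCL1-AT samples, against 11.99, 11.89, 11.72, 11.98 and 11.90 in WT samples. All TCL1-AT arrays were above all WT arrays on each of its 3 probes. The brightest probe was higher by 1.31 (SE 0.11, limma adjusted p = 2e-06), or 2.47-fold, and the others by 1.23 and 1.76, or 2.35-fold and 3.38-fold. By their brightest probes the rise of Cd74 was smaller than that of H2-Ab1. The within-array gap between these probes was 0.98 ± 0.13 in TCL1-AT samples and 1.92 ± 0.10 in WT samples (SD, n = 5 each). The shift was -0.94 without overlap (exact permutation test, 2-sided, adjusted p = 0.0106). Its size depends on the probe, since the dimmest Cd74 probe rose by 1.76. Raw signals of the brightest Cd74 probe were 7460 to 9952 in TCL1-AT samples and 3012 to 5206 in WT samples, so the groups were separate before normalization too.

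**Figure D2:**
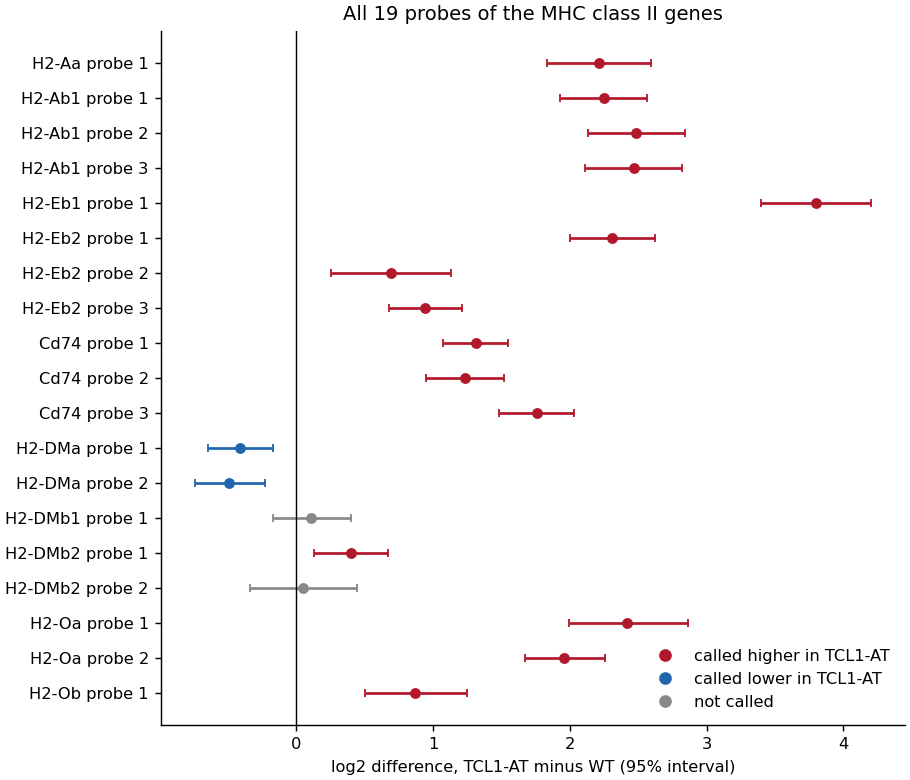
Log2 difference, TCL1-AT minus WT, of each of the 19 probes with its 95% interval from the limma fit, grouped by gene. Chain and Cd74 probes all lie to the right of 0, from 0.69 for an H2-Eb2 probe to 3.80 for H2-Eb1, both H2-DMa probes lie to the left, and the H2-DMb1 interval spans 0.

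DM is the exchange factor that removes CLIP from the groove, and H2-DMa gives its alpha chain. H2-DMa had 11, 11.10, 11.17, 11.50 and 11.02 in TCL1-AT samples, against 11.70, 11.51, 11.56, 11.46 and 11.59 in WT samples. TCL1-AT 4 alone reached the WT range, and the other 4 TCL1-AT arrays were below it. The probe was lower, with a log2 difference of -0.41 (SE 0.11, limma adjusted p = 0.015), or 1.33-fold lower. The other probe had 10.49, 10.36, 10.53, 10.93 and 10.56 in TCL1-AT samples, against 11.26, 10.90, 11.06, 10.99 and 11.09 in WT samples, a difference of -0.49 (SE 0.12, limma adjusted p = 0.0078), or 1.40-fold lower, with TCL1-AT 4 again the highest. Both calls were lost with the median raw signal of each array as a covariate (-0.41 and -0.55, adjusted p 0.14 and 0.064). Before normalization the brightest probe had raw signals of 2097 to 2686 in TCL1-AT samples and 2745 to 3693 in WT samples.

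The beta chain of DM comes from either of the adjacent copies H2-DMb1 and H2-DMb2, whose probes may share target RNA because the genes are near copies. Probe sequences were not used here, so the assignment of signal between them is uncertain. H2-DMb1 had 9.56, 9.85, 10.10, 9.99 and 9.48 in TCL1-AT samples, against 9.64, 9.72, 9.55, 9.60 and 9.90 in WT samples. The groups overlapped over most of their range, and the difference was 0.11 with a 95% interval of -0.17 to 0.40 (limma adjusted p = 0.56). H2-DMb2 had 9.74, 9.91, 10.25, 10.13 and 9.82 in TCL1-AT samples, against 9.66, 9.38, 9.66, 9.38 and 9.76 in WT samples. Only TCL1-AT 1 lay within the WT range, and the difference was 0.40 (SE 0.13, limma adjusted p = 0.029), or 1.32-fold. That call was lost in 9 of 23 alternatives. It was lost when TCL1-AT 3, TCL1-AT 4, WT 2 or WT 4 was left out (adjusted p 0.077, 0.054, 0.07 and 0.072) and with the replicate number as a block (0.40, adjusted p = 0.058). It was also lost with the mean of both probes (0.23, adjusted p = 0.22), with raw signal as a covariate (0.53, adjusted p = 0.081) or a block (0.31, adjusted p = 0.48), and with no filter on dim probes (adjusted p = 0.054). The second H2-DMb2 probe was dim, at 4.67 to 5.55 in TCL1-AT samples and 4.76 to 5.43 in WT samples, and differed by 0.05 with an interval of -0.34 to 0.44.

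Relative to its partner genes H2-DMa was lower on every TCL1-AT array than on any WT array. The within-array gap between H2-DMa and H2-DMb1 was 1.36 ± 0.20 in TCL1-AT samples and 1.88 ± 0.16 in WT samples (SD, n = 5 each), a shift of -0.52 without overlap (exact permutation test, 2-sided, adjusted p = 0.0106). Against H2-Ab1, whose product DM loads, the gap shifted by -2.65, and against Cd74, the source of CLIP, by -1.71, both without overlap and at the same adjusted p. Most of these 2 shifts is the rise of H2-Ab1 (2.25) and of Cd74 (1.31), beside -0.41 for H2-DMa. They therefore say little about H2-DMa itself. These gaps do not depend on the scaling of an array as a whole, and their absolute size compares 2 probes and has no meaning as a ratio of transcripts.

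**Figure D3:**
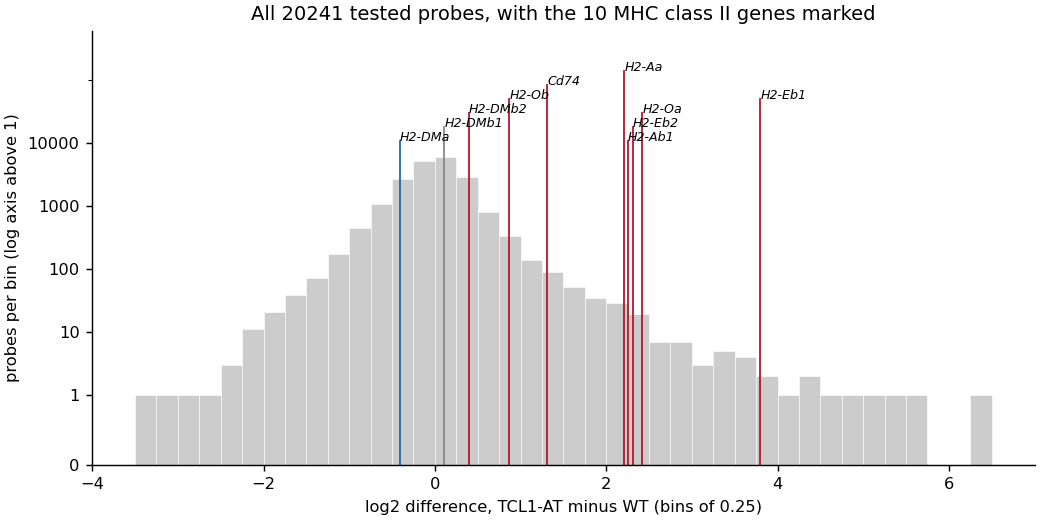
Number of tested probes by log2 difference, TCL1-AT minus WT, in bins of 0.25 over all 20241 probes (log axis above 1), with the brightest probe of each of the 10 genes marked. H2-Eb1 at 3.80 stands in the far right tail, H2-Aa, H2-Ab1, H2-Eb2 and H2-Oa lie between 2.21 and 2.42, and the H2-DM genes lie in the body of the distribution.

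DO, the inhibitor of DM, is built from H2-Oa and H2-Ob. H2-Oa had 7.64, 7.60, 8.24, 7.46 and 7.86 in TCL1-AT samples, against 5.62, 5.60, 5.48, 5.43 and 4.56 in WT samples, with WT 5 well below the other WT arrays. The groups lay far apart on both H2-Oa probes. The brightest was higher by 2.42 (SE 0.20, limma adjusted p = 1.4e-06), or 5.37-fold, and the other by 1.96, or 3.90-fold. Without background correction the difference of the brightest probe was 1.37. The raw signals behind it were 225 to 337 in TCL1-AT samples and 84.2 to 120 in WT samples, the WT values lying near the arrays' median raw signals. H2-Ob had 5.46, 5.63, 6.06, 5.67 and 5.70 in TCL1-AT samples, against 4.50, 5.14, 4.68, 5.34 and 4.49 in WT samples. It was higher by 0.87 (SE 0.17, limma adjusted p = 0.0021), or 1.83-fold, with every TCL1-AT array above every WT array. Its difference ran from 0.31 to 1.20 over 23 other ways of processing, and the call was lost with raw signal as a covariate (0.85, adjusted p = 0.053). The within-array gap between H2-Oa and H2-Ob shifted by 1.55 (exact permutation test, 2-sided, adjusted p = 0.0106). Both genes were dim in WT samples, and H2-Ob was dim in TCL1-AT samples too, with raw signals of 118 to 133. The size of this shift therefore depends on the treatment of background: without background correction H2-Oa rose by 1.37 and H2-Ob by 0.31.

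Within the TCL1-AT group the order of the arrays was much alike across members. TCL1-AT 3 was the highest TCL1-AT array on 14 of 19 probes, and the lowest was TCL1-AT 1 on 8 probes and TCL1-AT 5 on 8. Some genes have several probes, and by the brightest probe TCL1-AT 3 was highest for 7 of 10 genes. How often TCL1-AT 3 led over all tested probes is not given here. Among WT arrays no sample led in this way: WT 1 and WT 2 were each highest on 6 probes, and WT 3 was lowest on 7. TCL1-AT 3 also stood apart in some genes of B cells, the type that the transplanted leukaemia belongs to and that makes class II itself. The B cell marker list had 18 genes, of which 15 had a named probe and 6 were tested. Of these 4 were called higher and none lower, namely Cd72, Cd79b, Fcrla and Spib, against 12.7% and 16.5% of all named genes. Cd72, Fcrla and Spib were detected on 5 TCL1-AT arrays but on only 3, 3 and 1 WT arrays. They thus passed the filter mainly through the group where they are higher. Fcrla and Spib were each called on 1 of 2 probes. The summed linear signal of the 6 tested genes was 1187 in TCL1-AT 3, 688 to 895 in the other 4 TCL1-AT samples and 487 to 554 in WT samples. That sum rests largely on Cd79b, and without it the sums were 216 to 384 in TCL1-AT samples and 140 to 169 in WT samples. Without Cd72 alone the sums were 609 to 1023 in TCL1-AT samples and 463 to 535 in WT samples. Cd79b, a chain of the B cell receptor complex, averaged 9.13 ± 0.30 in TCL1-AT samples and 8.53 ± 0.12 in WT samples (SD, n = 5 each), a difference of 0.60 (SE 0.14, limma adjusted p = 0.0057).

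Cd72, a B cell surface lectin, showed the largest difference of the tested B cell markers, 2.76 (limma adjusted p = 6.3e-07), with detection on 5 TCL1-AT and 3 WT arrays. Ms4a1, which encodes CD20, was near background at 4.36 ± 0.18 in TCL1-AT samples and 4.38 ± 0.18 in WT samples (SD, n = 5 each), detected on 2 TCL1-AT and 3 WT arrays. Pax5 was detected on 0 TCL1-AT arrays and 1 WT array, and Cd79a had no named probe. In TCL1-AT 3 the signals of Blk and Faim3, both B cell genes named after their values were seen, were 6.01 and 7.48. The other TCL1-AT arrays had at most 4.35 and 5.29. Pou2af1 was at 5.74 in TCL1-AT 3, but Pax5, Bank1, Cr2, Vpreb3 and Fcer2a of the same list were at 4.08 to 4.28 there. Without TCL1-AT 3 the differences were 2.17 for H2-Aa, 2.16 for H2-Ab1, 3.65 for H2-Eb1, 1.25 for Cd74, 2.30 for H2-Oa, 0.79 for H2-Ob and -0.41 for H2-DMa, all still called, and the call of H2-DMb2 was lost. The part of B cell RNA in the remaining difference was not tested.

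Markers of other cell types differed between the groups for some lists and not for others, and their part in the class II difference was not tested. The counts below stand against 12.7% of all named genes called higher and 16.5% called lower. Of 9 tested genes of conventional dendritic cells, which carry much class II, 3 were called higher and 4 lower. Zbtb46, a transcription factor of that lineage, was higher by 1.57 (limma adjusted p = 1.3e-06), with detection on 5 TCL1-AT and 1 WT arrays. It thus passed the filter mainly through the group where it is higher, so its call is partly built in by the filter. Kit was higher by 1.83. Flt3 was detected on 1 array of each group, Xcr1 on none, and neither was tested. Dpp4 was higher by 2.04 on its brightest probe, while its second probe gave -0.2 without a call. Batf3, Cd209a, Btla and Itgae were lower (-1.33, -0.91, -0.84 and -0.73). Of these genes, Dpp4, Batf3, Cd209a and Btla are named after their values were seen. The median difference of the list was -0.30. The summed signal of the list was 2642 to 3118 in TCL1-AT samples and 1286 to 1593 in WT samples, but this rests on Dpp4, and without it the sums were 493 to 608 in TCL1-AT samples and 829 to 965 in WT samples. Plasmacytoid dendritic cell genes summed to 850 to 1313 in TCL1-AT samples and 1226 to 1435 in WT samples (2 higher and 1 lower of 7, Siglech not called at 0.50, adjusted p = 0.10). Spib, counted among the higher ones, also passed the filter mainly through TCL1-AT arrays. T cell genes summed to 951 to 1072 in TCL1-AT samples and 1283 to 1564 in WT samples (0 higher and 4 lower of 7, Cd3e with a difference of -1.13). NK cell genes summed to 1285 to 3491 in TCL1-AT samples and 749 to 1106 in WT samples (1 of 4 higher, Ncr1 not detected on any array). The higher gene was Prf1 (1.48), named after its value was seen, and without it the sums were 165 to 237 in TCL1-AT samples and 188 to 199 in WT samples. Neutrophil genes summed to 21559 to 40700 in TCL1-AT samples and 24956 to 39277 in WT samples (1 of 11 lower, Mmp8, detected on 0 TCL1-AT and 5 WT arrays). Mmp8 thus passed the filter only through the WT group, where it is higher. Of 8 red pulp macrophage genes 1 was higher, Spic by 1.66, and 3 were lower, with sums of 2450 to 2823 in TCL1-AT samples and 1867 to 2387 in WT samples. Monocyte markers, 3 higher and 2 lower of 11, summed to 53392 to 57981 in TCL1-AT samples and 47268 to 51463 in WT samples. Among them Spn differed most, higher by 1.18 (limma adjusted p = 2e-05), and Cd68 was lower (-0.31). Both are named after their values were seen.

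Further markers were detected on all arrays of only 1 group. Of these Cox6a2, of plasmacytoid dendritic cells, was higher by 0.85, and Vcam1, of red pulp macrophages, was lower (-0.54). Clec9a, Ccr7, Ly6d, Klrk1 and C1qc were not called, at -0.07, -0.30, 0.63, 0.17 and -0.38. In TCL1-AT 3 Ly6d was at 6.87, against 4.42 to 4.95 in the other TCL1-AT arrays.

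**Figure D4:**
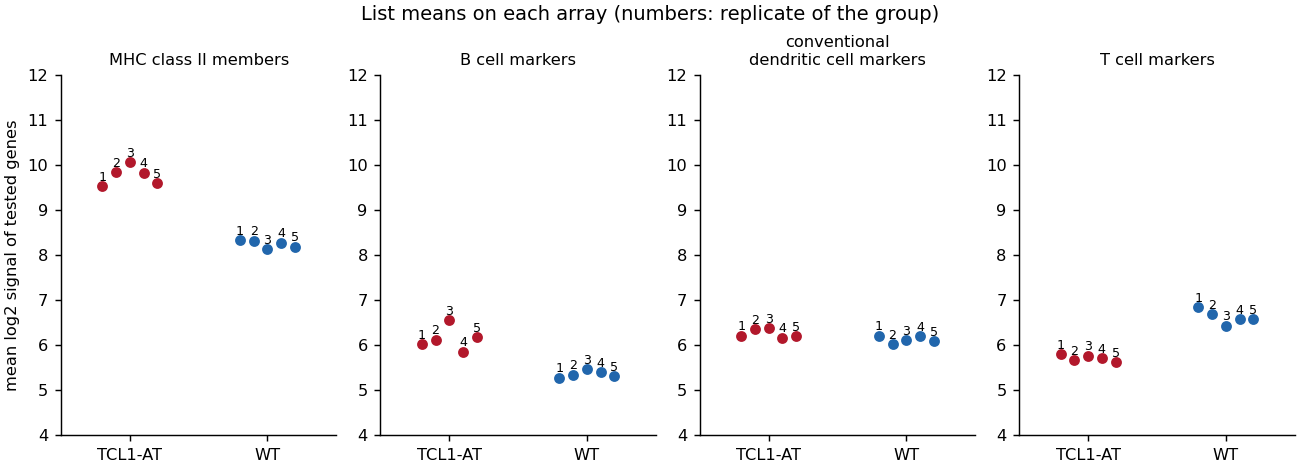
Mean log2 signal of the tested genes of 4 lists (class II members and B cell, conventional dendritic cell and T cell markers) on each array, TCL1-AT at left and WT at right in each panel, with each point labelled by its replicate number. For B cell markers TCL1-AT 3 is at 6.55 and the other TCL1-AT arrays are at 5.85 to 6.17, all above the WT arrays. Cd72, Fcrla and Spib passed the filter mainly through TCL1-AT arrays, so that separation is partly built in by the filter.

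The factors that act on the class II promoter module were taken as a list of 12 genes, of which 10 were tested. Of these 5 were called higher and 1 lower, against 12.7% and 16.5% of all named genes. Ciita, the coactivator without which class II genes are silent, had 7.92, 8.10, 8.34, 7.74 and 7.73 in TCL1-AT samples, against 6.28, 6.60, 6.41, 6.38 and 6.52 in WT samples. It was higher by 1.53 (SE 0.13, limma adjusted p = 1.6e-06), or 2.88-fold, without overlap, and TCL1-AT 3 was again the highest array. Nfyb, a subunit of NF-Y, was higher by 0.61, and Creb1 by 0.77 on its brightest probe but by -0.12 on a second one. Irf1, which carries the interferon signal to Ciita, was higher by 0.58, and all 5 of its probes were called higher. Spi1, the myeloid factor PU.1, was higher by 0.40, and Irf8, a factor of monocyte and dendritic cell development, was lower, with a difference of -0.85. The calls of Irf1, Irf8 and Spi1 were lost with raw signal as a covariate (adjusted p 0.065, 0.066 and 0.21), and that of Ciita was kept under each of the 23 alternatives. The RFX subunit genes Rfxap and Rfxank (-0.16 and -0.22) and the NF-Y genes Nfya and Nfyc (0.21 and -0.15) were not called. Rfx5 was below the filter, detected on 0 TCL1-AT arrays and 1 WT array.

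Genes of antigen processing and class II trafficking were called in both directions: of 18 listed, 17 were tested, 3 called higher and 4 lower, with a median difference of -0.22. These counts are near the background of 12.7% of named genes higher and 16.5% lower. Cd82, a tetraspanin of class II compartments, was higher by 0.88 (limma adjusted p = 4.4e-05). Ifi30, the thiol reductase GILT that opens disulfide bonds of antigens, was higher by 0.55, and Cd9, another tetraspanin, by 0.58. Lower were Lgmn, an endosomal protease that starts invariant chain cleavage (-0.64, adjusted p = 0.013), Marchf1, the ubiquitin ligase that removes class II from the surface (-0.39, adjusted p = 0.015), and Cd37 (-0.36, adjusted p = 0.024). The fourth, the cathepsin gene Ctsh, named here after its value was seen, lost its call under 13 of 23 alternatives. Of these calls, those of Lgmn and Cd9 were lost with raw signal as a covariate, and that of Cd37 was lost in 6 of 23 alternatives, leaving out TCL1-AT 2, TCL1-AT 5, WT 1 or WT 5 among them. Ctss, the cathepsin that trims the invariant chain to CLIP, differed by -0.68 and was not called (limma adjusted p = 0.051).

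Among the ligand and partner genes of Cd74, 1 of 5 was called higher and 2 lower, against 12.7% and 16.5% of all named genes. Mif, the cytokine that binds the invariant chain at the surface, was higher by 0.39 (limma adjusted p = 0.0064) on 1 of its 2 probes, the other giving 0.36 without a call. The call was lost with raw signal as a covariate (0.37, adjusted p = 0.10). Cxcr4, a chemokine receptor that pairs with it for MIF signalling, had 8.87, 8.27, 8.30, 8.18 and 8.62 in TCL1-AT samples, against 9.24, 9.80, 9.01, 10.35 and 8.97 in WT samples. It was 2.03-fold lower, with a log2 difference of -1.02 (SE 0.24, limma adjusted p = 0.0064) and no overlap. Cd44, the signalling partner of surface CD74, was lower by its brightest probe, with a difference of -0.48 (limma adjusted p = 0.0015), and its 6 probes, 3 of them called lower and 0 higher, ranged from -0.98 to 0.30. Ddt and Cxcr2 (-0.15 and 0.03) were not called.

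Except for Cd74 the members lie together on chromosome 17, so their neighbours were read in map order. Of 20 listed genes of the region that are no members, 16 were tested. Of those 7 were called higher and 1 lower, against 12.7% and 16.5% of all named genes. The higher ones included genes of class I antigen presentation that lie between H2-DMb1 and H2-Ob: Psmb9, a proteasome subunit (0.84), and Tap1 and Tap2, the peptide transporter (0.90 and 0.72). Psmb8, also in that run, was higher by 0.35 and Ring1 by 0.38, both named after their values were seen, and their calls were lost in 8 and 11 of 23 alternatives. The class I genes H2-K1 and H2-K2 were higher by 0.68 and 0.47. Brd2, a chromatin reader that stands between H2-Oa and H2-DMa, was not called at 0.15, nor was Col11a2 on the other side of H2-Oa (-0.13). Beyond H2-Eb2 the tested genes Notch4, Gpsm3, Ager and Rnf5 were not called, at -0.16 to 0.06, and Pbx2 was lower by 1 of its 3 probes (-0.41, limma adjusted p = 0.018), the others reaching 0.02. The call of Pbx2 was lost in 3 of 23 alternatives, raw signal as a covariate (adjusted p = 0.12) among them. H2-DMa, with its difference of -0.41, thus stood between genes at 0.15 and 0.40, and the members H2-Ab1, H2-Aa, H2-Eb1 and H2-Eb2 followed each other at 2.25, 2.21, 3.80 and 2.31.

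**Figure D5:**
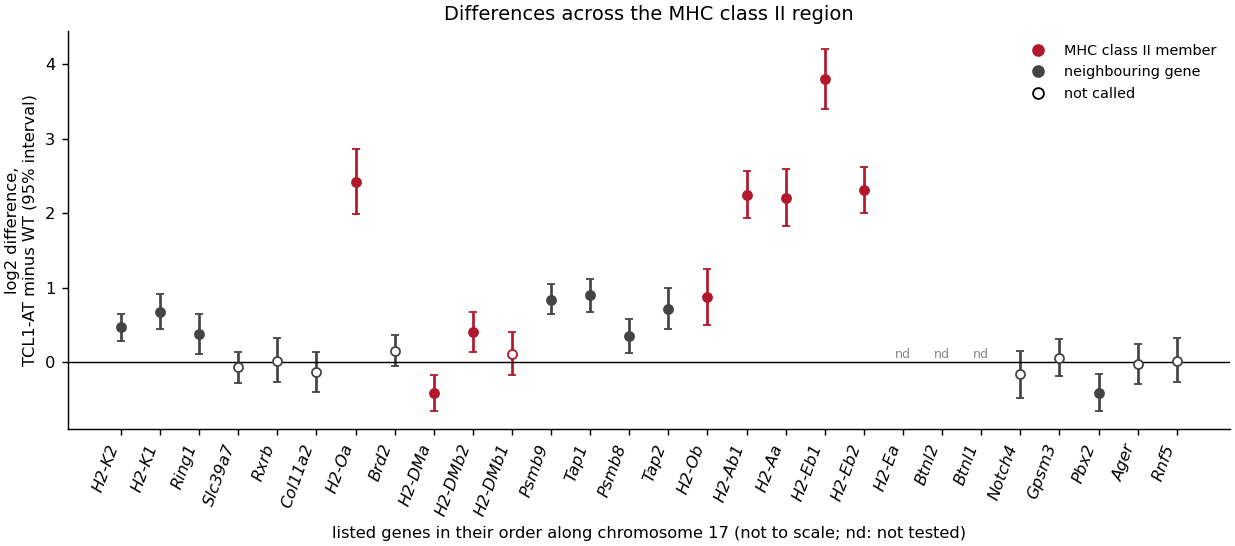
Log2 difference, TCL1-AT minus WT, with its 95% interval, for genes of the class II region in their order along chromosome 17 (not to scale). Class II members and other genes have separate colours. The run from H2-Ab1 to H2-Eb2 lies at 2.21 to 3.80, while Brd2, the H2-DM genes and the genes beyond H2-Eb2 lie within 0.41 of 0.

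The genes whose arrays followed the class II pattern most closely were found among 11496 named genes, as those with the smallest mean absolute difference over the 10 arrays once each gene was set to 0 at its WT mean. Nearest to H2-Ab1 were Hsd17b2 at 0.15, Plpp1 at 0.22 and Gdnf at 0.23, and nearest to H2-Aa were Hsd17b2 at 0.17, Tgm2 at 0.26 and Spint1 at 0.27. Nearest to H2-Eb1 were Il10 at 0.28, Ifnlr1 at 0.37 and Pecam1 at 0.38. Nearest to Cd74 were Tnip1 at 0.11, with Jak3 and Naprt at 0.13. These distances are descriptions of 10 arrays in 2 groups and rest mainly on the size of the group difference.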

How the data were processed

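The 10 arrays are 1-colour Illumina mouse arrays. Per the labels' protocols, 150 ng of column-purified RNA were amplified to cRNA with a biotin label and stained with Cy3-streptavidin. For each probe and array the deposited raw table holds the signal intensity beside its detection p-value, per the file headers. The authors' deposited series matrix holds log2 values. No source used here says how they were made. Judged from the values, they differed from limma's neqc (normexp with inferred negative controls, offset 16, quantile normalization) by at most 0.00043, and each array had a median of 4.3. Scanner and scanner software: not given in the sources used here.

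The deposited log2 values were tested. Probes with a detection p-value under 0.05 on at least 5 arrays were fitted with limma 3.58.1 (lmFit and eBayes, 2-sided, R 4.3.3) without covariates, with Benjamini-Hochberg adjustment over all 20241. A gene stands for its brightest probe. Symbols came from the platform annotation, updated through RefSeq, and 10453 probes had none. Differences are TCL1-AT minus WT. Fold changes of dim probes understate the change, and genes detected on only some arrays of a group are given without a fold. Gaps between 2 genes were compared with exact permutation tests. For arrays, their number limits the precision.

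The members, the gene lists and the alternatives were chosen with earlier results of these data known. Named were all members, all transcription factor and Cd74 partner genes, up to 6 processing genes and 6 neighbours by lowest p, defining markers, markers detected on all arrays of 1 group only, and the 3 genes most like each of 4 members. The fit was tested on simulated data. Alternatives covered background correction, normalization, filters, array weights, the replicate block, raw signal, probes per gene and leaving out each array.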

Additional observations from a re-analysis of the deposited data

Results flagged for a closer look

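In 38 groups of 5 arrays, 1 for each probe and group, the highest or lowest array was compared with its nearest neighbour, relative to the group's range. An array stood apart in 4 of them, where chance gives about 1 in 20. H2-Ab1 had 9.65 in WT 3 on its brightest probe, below the nearest WT array at 10.00. H2-Oa had 4.56 in WT 5 on its brightest probe, below the nearest WT array at 5.43. H2-Eb2 had 4.75 in TCL1-AT 1 on the middle of its 3 probes by brightness, below the nearest TCL1-AT array at 5.37, and 4.47 in WT 5 on its dimmest probe, above the nearest WT array at 4.12.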

How the results depend on the processing

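Over up to 23 alternatives the differences kept their sign and their call for all probes of H2-Aa (1.87 to 2.32), H2-Ab1, H2-Eb1 (3.35 to 3.91), Cd74 and H2-Oa and for the brightest and the dimmest probe of H2-Eb2. With median raw signal as a covariate, member probes called lower fell to 0 and member genes called lower to 0, all probes gave 1102 higher and 1340 lower, and the listed pathway genes 10 higher and 3 lower, against 16 and 8. A block for raw signal, added after the data were seen, puts the TCL1-AT arrays with WT 1 and so sets them against WT 1 alone. It gave 0 member probes and 0 member genes lower, 649 and 681 of all probes, and 6 and 0 pathway genes. With the replicate block, 14 member probes were higher and 2 lower, all probes gave 2035 higher and 2567 lower, H2-DMb2 lost its call at 0.40 (adjusted p = 0.058), and no other member call changed. The numbers do not pair the samples: same-numbered TCL1-AT and WT samples had correlated deviations of -0.18 to 0.18, and 1 of 5 matched its own number best. Leaving out 1 array gave 13 to 15 member probes higher and 2 to 2 lower, 7 to 8 member genes higher and 1 to 1 lower, 1949 to 2701 of all probes higher and 2423 to 3054 lower, and 14 to 16 pathway genes higher and 6 to 8 lower. The dim H2-DMb2 probe ran from -0.083 to 0.16 when 1 array was left out, with -0.083 without TCL1-AT 3, -0.01 without TCL1-AT 4, -0.0033 without WT 1 and -0.0041 without WT 5. Slide was not run as a block because the file headers give no slide. The cause of these changes was not tested. Signal over background limits H2-Eb2, H2-Ob, H2-Oa in WT samples and the second H2-DMb2 probe.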
